A study of Homo sapiens with 6 samples.

Results

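The 40 genes described here had mRNA levels that stayed within 0.3 log2 units of vehicle after 6 h of vemurafenib and were at least 1 log2 unit, or 2-fold, above vehicle after 18 h, in each of 2 cell lines. They were selected on these measured changes from 10516 genes whose mean signal over all arrays was at least 6 log2 units, so 0.38% of those genes met the rule. In all, 19775 genes had a probe set that names a single gene, and each was represented by its brightest probe set. Collagen, cadherin, protocadherin, IFI and OAS family symbols and ACTA2 were left out by name, which removed 2 genes that otherwise met the rule. The changes at 6 h and at 18 h chose the genes and are given as a description with no test.

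The study used A375, a human melanoma cell line with an activated BRAF kinase. All cells used carried a CRISPR knockout of eIF4B, whose product assists the helicase of translation initiation. Stable lines were then made with a lentivirus that carried LacZ as a negative control (KO/LacZ, the knockout line) or the wild-type eIF4B gene (the rescued line, KO/eIF4B), and each was given DMSO vehicle or vemurafenib at 10 µM and sampled after 6 h or 18 h of drug, with 1 array for each combination and 6 arrays in all. How long vehicle was applied is not labelled, so the drug and time in culture cannot be told apart, and neither clones nor separate cultures are named, so the p-values below rest on array-to-array spread that may be technical. In bulk RNA, more cells that express a gene and more RNA per cell cannot be told apart.

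Vemurafenib blocks the mutant BRAF kinase and through it the MEK and ERK kinases. Transcripts under direct ERK control are known to fall soon after such a block, whereas other transcripts change later, as proteins turn over and cells leave the cycle. An mRNA with a long half-life is known to approach a new level slowly. The values below are RMA signals on the log2 scale, a background-corrected and array-normalised probe intensity. Probe sets differ in brightness, so a level is set only against the same gene's level on another array.

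The arrays had near-equal medians, between 5.196 and 5.221 log2 units over all probe sets, and 3' minus 5' control probe signals differed little, from -0.01 to 0.04 for GAPDH and 0.13 to 0.18 for ACTB. The median of gene-level signals at 18 h was 0.12 above vehicle in KO/LacZ and 0.14 in KO/eIF4B, while the median of per-gene changes was -0.02. After centring each array on that median, 40 genes again met the rule, and 24 of them were among the 40 described here. DUSP6, an ERK phosphatase under direct ERK control, had a mean change of -5.19 at 6 h and -5.31 at 18 h and so was already low at 6 h. EIF4B mRNA, 8.4, 8.53 and 8.53 in KO/LacZ and 10.07, 10.14 and 10.28 in KO/eIF4B under vehicle, at 6 h and at 18 h, had a mean difference of -1.68, KO/LacZ minus KO/eIF4B. Of 8 melanoma markers 7 had a mean of at least 5, with MLANA below it, and the log2 of their summed signal ranged from 11.3 to 11.76 over the 6 arrays. For 10 fibroblast markers, 6 of them at a mean of at least 5, this sum was 9.27, 9.71 and 10.5 in KO/LacZ and 9.56, 9.84 and 10.81 in KO/eIF4B under vehicle, at 6 h and at 18 h, so it was highest at 18 h in both lines. COL1A2, COL3A1, PDGFRA and FAP of that list were below a mean of 5. At 18 h LUM of that list changed by 2.67 in KO/LacZ and 2.31 in KO/eIF4B, DCN by 1.75 and 1.81, and ACTA2 by 1.76 and 1.69. ACTA2 met the limits of the rule and was left out by name, so this sum is not independent of the late rise. Changes of COL1A1, PDGFRB and THY1 are not given here. The part that cells with these markers had in the late rise was not tested. Epithelial (12.3 to 12.97), blood cell (7.97 to 8.37) and endothelial (7.46 to 7.88) sums were below their own-line vehicle values at 18 h. A mean of at least 5 was reached by 5 of 8 measured epithelial markers, KRT5, KRT8, KRT14, KRT18 and MUC1. It was also reached by 3 of 5 blood cell markers, CD3E, LYZ and HBB, and by 3 of 6 endothelial markers, PECAM1, VWF and TEK. Those below it were EPCAM, KRT19, CDH1, PTPRC, CD14, CDH5, KDR and CLDN5.

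Across the 40 genes the median change at 18 h was 1.32 as the mean of both lines, from 1.01 for ARHGAP35 to 1.97 for OGFRL1. At 6 h the median change was 0.16 in KO/LacZ and 0.22 in KO/eIF4B. Of the 40 genes 35 were above vehicle at 6 h in both lines, 1 (KAT2B) was below in both, and 4 went opposite ways within the window. Most of these genes thus stood slightly above vehicle at 6 h, and the median gene had reached 14.7% of its 18 h change. The 6 h window and the 18 h minimum of the rule keep this share low. Both changes are taken from the same vehicle array of a line, so a low vehicle value raises both. These values describe the selection and are no separate result. Among all genes with a mean of at least 6, 45.5% were above vehicle at 6 h in both lines, and among all 395 genes up by 1 or more at 18 h in both lines, which include the 40, 96.5% were.

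**Figure D1:**
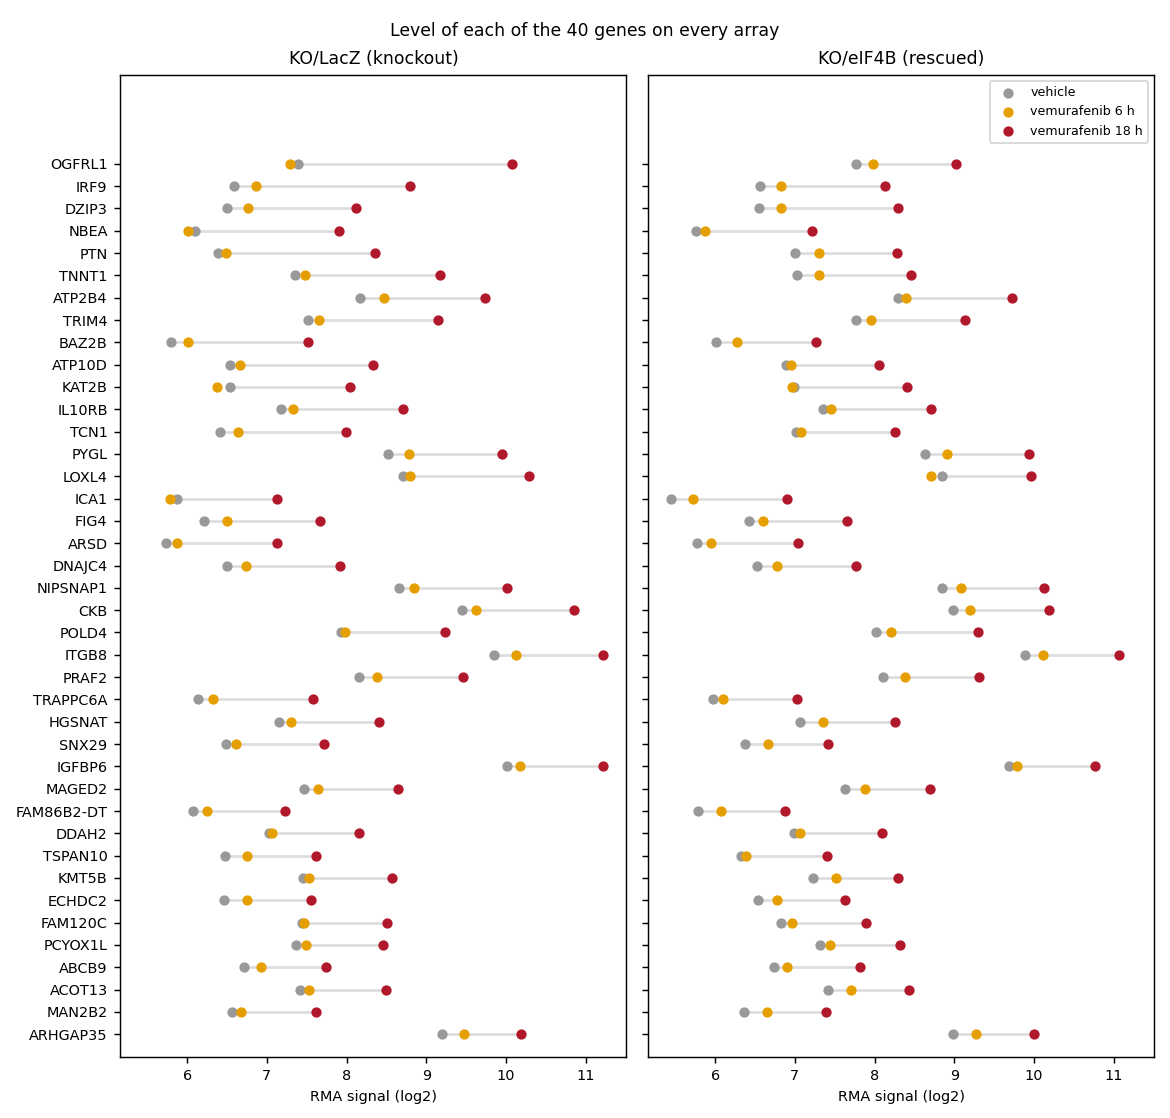
RMA signal (log2, horizontal axis) of each of the 40 genes on every array, with KO/LacZ on the left and KO/eIF4B on the right; points are single arrays under vehicle, at 6 h and at 18 h. In every row the 6 h point lies within 0.3 of vehicle, as the rule requires, and the 18 h point stands 1.0 to 2.68 above vehicle in KO/LacZ and 1.01 to 1.74 in KO/eIF4B.

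In 6 h change the genes graded into the other late risers. Counting genes with a mean of at least 6, 3.82% were up by 1 or more at 18 h in both lines. Without the symbols left out by name these were 395 genes, and the 40 form 10.1% of them. Another 48 were already up by 1 or more at 6 h in both lines, and 307 lay between. Of the 395, 273 were above the 6 h window in both lines and 2 were below it in both. The 40 genes therefore sit at the low end of a continuous range of 6 h changes, and moving the window changed their number, to 13 with a window of 0.2 and to 135 with a window of 0.5.

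**Figure D2:**
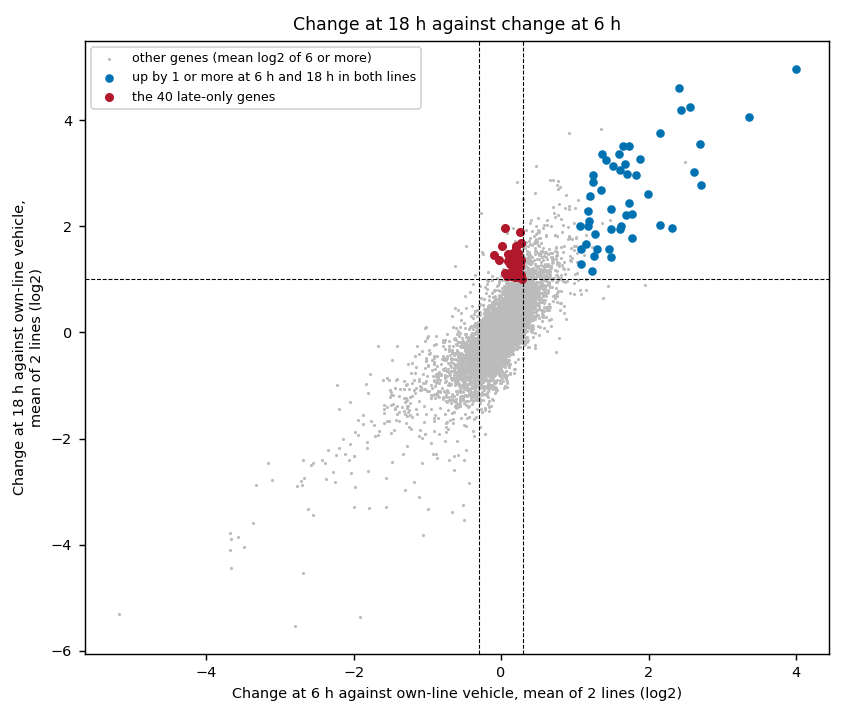
Change at 18 h (vertical axis) against change at 6 h (horizontal axis), both in log2 units as the mean of the 2 lines, for genes with a mean of at least 6; dashed lines mark -0.3, 0.3 and 1. The 40 genes lie between the vertical lines and above the horizontal one, and the 48 genes up by 1 or more at both times reach 18 h changes of 4.97.

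The limits of the rule cut through close values. ARHGAP35, ACOT13 and PCYOX1L passed the 18 h limit with 1.003, 1.008 and 1.009 in the line with the smaller change, and TINF2, SCUBE3 and NOL4L missed it with 0.998, 0.991 and 0.989. ATP2B4, PTN and FAM86B2-DT were inside the 6 h window with largest absolute changes of 0.298, 0.295 and 0.294, and AIG1, CAPS and FGD4 were outside with 0.301, 0.304 and 0.304. CAPS was 2.14 and 1.79 above vehicle at 18 h in KO/LacZ and KO/eIF4B, more than most genes inside. The dimmest genes inside were ICA1, ARSD and FAM86B2-DT with means of 6.14, 6.25 and 6.38, and the brightest outside were F8, MYL9 and ERMAP with 5.88, 5.79 and 5.7.

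The genes fall into groups by known role, assigned after their values were seen. There were 10 genes of lysosomes, endosomes and vesicle traffic, 7 of metabolism and mitochondria, 5 of transcription, chromatin and DNA, 5 of cell surface receptors, pumps and adhesion, 4 secreted proteins, 4 ubiquitin ligases and chaperone-type proteins, 2 of the cytoskeleton and contraction, and 3 with little described function. Median 18 h changes of these groups lay between 1.12 and 1.46. Of 21 pathway lists, 3 held a member, which were IRF9, LOXL4 and IGFBP6, and the other 37 genes were in no list.

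OGFRL1, which resembles the opioid growth factor receptor and whose function is little described, had the largest 18 h change of the 40. Its levels were 7.39, 7.29 and 10.07 in KO/LacZ cells under vehicle, at 6 h and at 18 h, and 7.76, 7.98 and 9.02 in KO/eIF4B cells. The 18 h arrays were the highest of each line, and the change was 2.68 in KO/LacZ and 1.26 in KO/eIF4B, a difference of 1.41 between the lines. Under vehicle and at 6 h the KO/LacZ array was the lower one, with KO/LacZ minus KO/eIF4B differences of -0.37 and -0.69, and at 18 h it was higher by 1.04. OGFRL1's other 2 probe sets with a mean of at least 6 gave 18 h changes of 1.61 and 1.52 in KO/LacZ against 0.02 and 0.27 in KO/eIF4B, so all 3 read a larger change in KO/LacZ, and in KO/eIF4B these other 2 stayed close to vehicle. Its promoter from RefSeq (chr6:71288561-71288860, plus strand, GRCh38.p14), 250 bases before to 50 after the annotated start, is shown because the gene leads the set. Capitals here and in the promoters below mark matches to any of the 10 motifs searched, which are named further on, and in OGFRL1 every match is a GC box.
OGFRL1: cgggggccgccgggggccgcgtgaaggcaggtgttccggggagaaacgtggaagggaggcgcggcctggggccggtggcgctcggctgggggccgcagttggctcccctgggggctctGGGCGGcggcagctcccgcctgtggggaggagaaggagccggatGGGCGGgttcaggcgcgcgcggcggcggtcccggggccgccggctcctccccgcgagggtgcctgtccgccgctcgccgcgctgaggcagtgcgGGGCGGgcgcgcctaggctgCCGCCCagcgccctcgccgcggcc

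Among regulators of transcription, IRF9, the DNA-binding subunit of the complex that switches on interferon-stimulated genes, read 6.59, 6.86 and 8.8 in KO/LacZ cells under vehicle, at 6 h and at 18 h, and 6.56, 6.82 and 8.13 in KO/eIF4B cells. Both 18 h arrays stood above the other 4, and the change was 2.21 in KO/LacZ and 1.57 in KO/eIF4B. KAT2B, a histone acetyltransferase, read 6.54, 6.37 and 8.04 in KO/LacZ cells under vehicle, at 6 h and at 18 h, and 6.99, 6.96 and 8.41 in KO/eIF4B cells, and its KO/LacZ level was below its KO/eIF4B level in each pair of arrays. BAZ2B, a bromodomain protein of chromatin, read 5.8, 6.01 and 7.52 in KO/LacZ cells under vehicle, at 6 h and at 18 h, and 6.01, 6.27 and 7.27 in KO/eIF4B cells. All 3 had their highest level at 18 h in each line, and BAZ2B changed by 1.72 in KO/LacZ and 1.27 in KO/eIF4B. KMT5B, a methyltransferase of histone H4, changed by 1.12 in KO/LacZ and 1.06 in KO/eIF4B, and POLD4, a small subunit of DNA polymerase delta, by 1.3 in KO/LacZ and 1.28 in KO/eIF4B. The second KMT5B probe set with a mean of at least 6 went the other way, with -0.49 in KO/LacZ and -0.33 in KO/eIF4B. The IRF9 promoter (chr14:24161015-24161314, plus strand, GRCh38.p14) is shown as that of the one gene of the interferon list. Its capitals are an E-box, a TEAD motif and GC boxes.
IRF9: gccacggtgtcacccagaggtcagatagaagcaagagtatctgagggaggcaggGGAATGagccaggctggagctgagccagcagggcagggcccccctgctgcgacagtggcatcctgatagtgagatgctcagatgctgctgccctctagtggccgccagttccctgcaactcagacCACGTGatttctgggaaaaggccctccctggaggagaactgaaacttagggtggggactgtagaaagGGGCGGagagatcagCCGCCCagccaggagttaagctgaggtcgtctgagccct

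Of 33 tested genes besides IRF9, 23 rose and 3 fell at 18 h, against 28.1% and 23.3% of all 13506 genes tested, and 6 rose and 1 fell at 6 h, against 7.34% and 8.82% (limma, Benjamini-Hochberg threshold 0.05). The list median was 0.14 at 6 h and 0.66 at 18 h, and that of all genes tested was 0.03 and 0.01. IRF9 thus stood in a list of which most tested genes rose by 18 h and fewer by 6 h. At 6 h, too, the share that rose was above that of all genes. No list was tested as a set.

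Among the secreted proteins, PTN (pleiotrophin), a heparin-binding growth factor, read 6.39, 6.49 and 8.35 in KO/LacZ cells under vehicle, at 6 h and at 18 h, and 7.0, 7.3 and 8.28 in KO/eIF4B cells. Its KO/LacZ level was below the KO/eIF4B level under vehicle and at 6 h, and the levels came together at 18 h, with changes of 1.96 in KO/LacZ and 1.28 in KO/eIF4B. TCN1, a carrier of cobalamin, read 6.41, 6.64 and 7.99 in KO/LacZ cells under vehicle, at 6 h and at 18 h, and 7.01, 7.08 and 8.26 in KO/eIF4B cells, lower in KO/LacZ in all 3 pairs. IGFBP6, a binding protein that prefers insulin-like growth factor II, read 10.01, 10.17 and 11.21 in KO/LacZ cells under vehicle, at 6 h and at 18 h, and 9.69, 9.79 and 10.76 in KO/eIF4B cells. LOXL4, an enzyme that crosslinks collagen and elastin, read 8.7, 8.79 and 10.29 in KO/LacZ cells under vehicle, at 6 h and at 18 h, and 8.84, 8.71 and 9.96 in KO/eIF4B cells, and its 6 h change was 0.09 in KO/LacZ and -0.13 in KO/eIF4B. All 4 had their highest level at 18 h in each line.

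The IGFBP6 promoter (chr12:53097417-53097716, plus strand, GRCh38.p14) and the TCN1 promoter (chr11:59866438-59866737, minus strand, GRCh38.p14) are set side by side because both encode secreted carriers and differ in base composition. The IGFBP6 window is 61.7% G or C with a CpG observed over expected ratio of 0.42, and the TCN1 window is 43% with 0.07. The capitals are a FOXO, a TEAD and a GC box motif in IGFBP6 and a CCAAT box in TCN1.
IGFBP6: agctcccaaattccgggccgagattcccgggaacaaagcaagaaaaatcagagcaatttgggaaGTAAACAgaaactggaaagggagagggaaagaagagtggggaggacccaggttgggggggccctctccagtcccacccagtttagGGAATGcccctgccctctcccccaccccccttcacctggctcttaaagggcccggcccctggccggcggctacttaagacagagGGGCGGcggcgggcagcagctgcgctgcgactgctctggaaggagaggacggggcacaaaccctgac
TCN1: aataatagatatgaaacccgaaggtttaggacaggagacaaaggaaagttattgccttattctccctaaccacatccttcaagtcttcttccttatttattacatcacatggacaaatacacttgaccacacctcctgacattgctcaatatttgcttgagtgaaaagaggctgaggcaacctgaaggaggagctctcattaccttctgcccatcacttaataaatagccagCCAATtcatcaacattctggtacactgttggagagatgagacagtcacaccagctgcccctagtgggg

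In the insulin-like growth factor list 3 of 12 tested genes besides IGFBP6 rose and 3 fell at 18 h. At 6 h 3 fell (limma, Benjamini-Hochberg). The medians of this list were -0.16 at 6 h and -0.03 at 18 h. In the matrix list 16 of 46 genes besides LOXL4 rose and 10 fell at 18 h, and 7 rose and 4 fell at 6 h, with medians of 0.04 and 0.13. Against the shares of all genes tested, 28.1% higher and 23.3% lower at 18 h and 7.34% and 8.82% at 6 h, the 18 h counts of the insulin-like growth factor list were near the background both ways, and those of the matrix list were near it for genes that fell.

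At the cell surface, ATP2B4, a calcium pump of the plasma membrane, read 8.17, 8.47 and 9.74 in KO/LacZ cells under vehicle, at 6 h and at 18 h, and 8.29, 8.39 and 9.72 in KO/eIF4B cells. A second bright probe set of ATP2B4 changed by 1.33 in KO/LacZ and 1.35 in KO/eIF4B at 18 h and met both limits. IL10RB, a shared subunit of receptors for interferon lambda and several interleukins, read 7.18, 7.33 and 8.7 in KO/LacZ cells under vehicle, at 6 h and at 18 h, and 7.35, 7.45 and 8.71 in KO/eIF4B cells, with close values in the lines. ITGB8, the integrin beta subunit known for activating latent TGF-beta, read 9.85, 10.12 and 11.22 in KO/LacZ cells under vehicle, at 6 h and at 18 h, and 9.89, 10.11 and 11.06 in KO/eIF4B cells. Its next probe set had a 6 h change of 0.7 in KO/eIF4B, outside the window. ATP10D, a lipid flippase, read 6.54, 6.66 and 8.33 in KO/LacZ cells under vehicle, at 6 h and at 18 h, and 6.89, 6.95 and 8.06 in KO/eIF4B cells. Its KO/LacZ level was the lower one under vehicle and at 6 h and the higher one at 18 h. TSPAN10, a tetraspanin described in pigment cells, changed by 1.15 in KO/LacZ and 1.08 in KO/eIF4B.

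The 10 genes of lysosomes, endosomes and vesicle traffic had mean 18 h changes from 1.04 to 1.63. NBEA, a scaffold of membrane traffic in neurons, read 6.1, 6.01 and 7.9 in KO/LacZ cells under vehicle, at 6 h and at 18 h, and 5.76, 5.87 and 7.21 in KO/eIF4B cells. HGSNAT, the lysosomal acetyltransferase of heparan sulfate breakdown, read 7.15, 7.3 and 8.4 in KO/LacZ cells under vehicle, at 6 h and at 18 h, and 7.06, 7.35 and 8.25 in KO/eIF4B cells. FIG4, a phosphoinositide phosphatase of endosomes, read 6.21, 6.5 and 7.66 in KO/LacZ cells under vehicle, at 6 h and at 18 h, and 6.43, 6.6 and 7.65 in KO/eIF4B cells. In these 3 genes the 18 h arrays of both lines lay above the other 4. MAN2B2, a mannosidase, changed by 1.05 in KO/LacZ and 1.03 in KO/eIF4B, ABCB9, a peptide transporter of lysosomes, by 1.03 in KO/LacZ and 1.07 in KO/eIF4B, and ARSD, of the sulfatase family, by 1.4 in KO/LacZ and 1.27 in KO/eIF4B. The next brightest ARSD probe set, with a mean of 5.99, changed by 0.31 in KO/LacZ and 0.41 in KO/eIF4B. None of the other ARSD probe sets, all with a mean below 6, met both limits. TRAPPC6A, of the vesicle-tethering TRAPP complex, changed by 1.44 in KO/LacZ and 1.06 in KO/eIF4B, and SNX29, a sorting nexin, by 1.23 in KO/LacZ and 1.05 in KO/eIF4B. PRAF2, a Rab acceptor family protein, changed by 1.31 in KO/LacZ and 1.2 in KO/eIF4B, while ICA1 is a protein of secretory vesicles. ICA1 read 5.87, 5.79 and 7.12 in KO/LacZ cells under vehicle, at 6 h and at 18 h, and 5.45, 5.72 and 6.9 in KO/eIF4B cells, so the larger 18 h change on this probe set was in KO/eIF4B, from a lower vehicle level. Its probe sets with a mean below 6 gave both orders, such as 1.35 in KO/LacZ against 1.1 in KO/eIF4B, and 0.38 against 0.56. ABCB9 read 6.71, 6.93 and 7.74 in KO/LacZ cells under vehicle, at 6 h and at 18 h, and 6.74, 6.9 and 7.81 in KO/eIF4B cells, with the lines close at each time.

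None of these 10 was in the lysosome and autophagy list. Of its 36 tested genes 24 rose and 4 fell at 18 h, against the 28.1% and 23.3% of all genes, and 4 rose and 1 fell at 6 h (limma, Benjamini-Hochberg). The list median was 0.13 at 6 h and 0.36 at 18 h.

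Of the metabolic genes, PYGL, the liver-type glycogen phosphorylase, read 8.52, 8.78 and 9.95 in KO/LacZ cells under vehicle, at 6 h and at 18 h, and 8.63, 8.91 and 9.94 in KO/eIF4B cells. CKB, the brain-type creatine kinase, read 9.44, 9.62 and 10.85 in KO/LacZ cells under vehicle, at 6 h and at 18 h, and 8.98, 9.2 and 10.19 in KO/eIF4B cells, with the KO/LacZ array above the KO/eIF4B array in each pair. NIPSNAP1, a mitochondrial protein, read 8.65, 8.84 and 10.01 in KO/LacZ cells under vehicle, at 6 h and at 18 h, and 8.85, 9.08 and 10.13 in KO/eIF4B cells. A second NIPSNAP1 probe set had 18 h changes of 1.42 and 1.31 and a 6 h change of 0.36 in KO/LacZ, outside the window. DDAH2, of the dimethylarginine hydrolase family, changed by 1.14 in KO/LacZ and 1.1 in KO/eIF4B. ACOT13, a thioesterase of acyl-CoA, changed by 1.09 in KO/LacZ and 1.01 in KO/eIF4B, and ECHDC2, of the enoyl-CoA hydratase family, by 1.08 in KO/LacZ and 1.1 in KO/eIF4B. PCYOX1L, related to prenylcysteine oxidase, changed by 1.1 in KO/LacZ and 1.01 in KO/eIF4B. The CKB promoter (chr14:103522781-103523080, minus strand, GRCh38.p14) is shown since CKB is among the genes that differed between the lines, and it holds a TATAAA match between CCAAT boxes, with a TEAD motif and GC boxes.
CKB: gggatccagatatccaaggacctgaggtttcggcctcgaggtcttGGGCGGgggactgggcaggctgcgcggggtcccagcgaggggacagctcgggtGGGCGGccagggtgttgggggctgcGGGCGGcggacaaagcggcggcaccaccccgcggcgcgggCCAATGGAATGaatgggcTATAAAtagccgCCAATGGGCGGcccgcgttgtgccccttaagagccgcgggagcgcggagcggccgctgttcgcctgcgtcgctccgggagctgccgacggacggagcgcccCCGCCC

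DZIP3, an RNA-binding ubiquitin ligase, read 6.5, 6.76 and 8.12 in KO/LacZ cells under vehicle, at 6 h and at 18 h, and 6.55, 6.83 and 8.29 in KO/eIF4B cells, and it had the largest 18 h change of the 40 in the rescued line. TRIM4, another ubiquitin ligase, read 7.52, 7.65 and 9.14 in KO/LacZ cells under vehicle, at 6 h and at 18 h, and 7.76, 7.95 and 9.13 in KO/eIF4B cells, with near-equal levels in the lines at 18 h. The other 3 TRIM4 probe sets with a mean of at least 6 had mean 18 h changes of 0.5, 0.19 and 0.32, so 1 of 4 read a change of 1 or more. In the same order, their 6 h changes were 0.49, 0.01 and 0.25 in KO/LacZ and 0.79, 0.02 and 0.4 in KO/eIF4B. The first thus had larger changes at 6 h than its 0.42 and 0.57 at 18 h. DNAJC4, with a DnaJ domain, changed by 1.42 in KO/LacZ and 1.25 in KO/eIF4B, and MAGED2, of the MAGE family, by 1.18 in KO/LacZ and 1.08 in KO/eIF4B. A second MAGED2 probe set met both limits, with 1.48 in KO/LacZ and 1.21 in KO/eIF4B. TNNT1, the slow skeletal troponin T, read 7.35, 7.48 and 9.17 in KO/LacZ cells under vehicle, at 6 h and at 18 h, and 7.03, 7.3 and 8.45 in KO/eIF4B cells. The 18 h levels were the highest in each line, and the KO/LacZ level was the higher one in each pair. ARHGAP35, a GTPase-activating protein for RhoA, read 9.19, 9.47 and 10.19 in KO/LacZ cells under vehicle, at 6 h and at 18 h, and 8.98, 9.27 and 10.0 in KO/eIF4B cells, the smallest mean change of the 40 at 1.0 in KO/LacZ and 1.02 in KO/eIF4B. FAM120C, little described, read 7.44, 7.47 and 8.51 in KO/LacZ cells under vehicle, at 6 h and at 18 h, and 6.83, 6.96 and 7.89 in KO/eIF4B cells. FAM120C was higher in KO/LacZ in each pair and changed by 1.07 in KO/LacZ and 1.06 in KO/eIF4B at 18 h, and FAM86B2-DT, a divergent non-coding transcript, by 1.15 in KO/LacZ and 1.1 in KO/eIF4B.

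Not every probe set of a gene showed its late rise. Of the 40 genes 17 had 1 single-gene probe set and 23 had others, 58 in all. Of these, 21 had a mean of at least 6, for 16 genes. At 18 h 19 of the 21 were above vehicle in both lines, 7 by at least 1 in both lines, and 3 of those 7 also kept within the 6 h window. The 2 that were lower at 18 h in both lines belonged to KMT5B and FAM120C. A mean 18 h change under 0.5 was read by 7 of the 21. Among these 7 were probe sets of ARHGAP35, with 0.06 in KO/LacZ and 0.22 in KO/eIF4B, and of SNX29, with 0.27 and 0.24. A second HGSNAT probe set with a mean of at least 6 changed by 0.83 in KO/LacZ and 0.25 in KO/eIF4B. The part of each transcript that a probe set matches was not analysed here. Of the representative probe sets 14 are of the _s_at kind and 3 of the _x_at kind, names that Affymetrix gives to probe sets that may match several transcripts or cross-hybridise, and PTN, DDAH2 and ICA1 rest on _x_at probe sets.

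The rule was then applied to each line alone. In KO/LacZ 578 genes were up by at least 1 at 18 h, and 196 of them, 33.9%, were within the 6 h window. In KO/eIF4B 450 genes were up, and 64, 14.2%, were within it. The 40 shared genes are 20.4% of the KO/LacZ genes and 62.5% of the KO/eIF4B genes. Of the 156 that met the rule in KO/LacZ alone, 64 missed only the 18 h limit in KO/eIF4B, 65 only the 6 h window and 27 both. In 0 of the 156 was the KO/eIF4B level at 18 h at or below vehicle. Each line has 1 array at each time, so the difference between these counts was not tested.

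**Figure D3:**
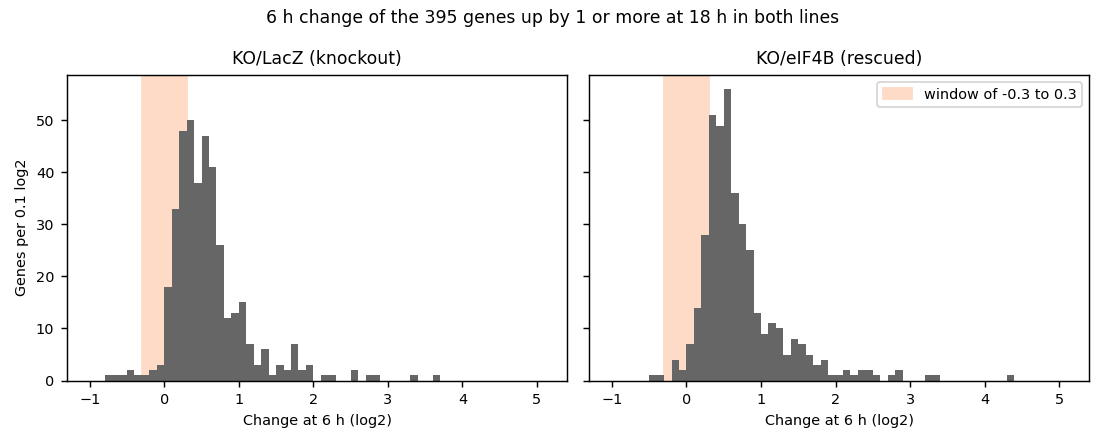
Histogram of the 6 h change (log2, horizontal axis) of the 395 genes up by 1 or more at 18 h in both lines, in KO/LacZ on the left and KO/eIF4B on the right; the shaded band is the window of the rule. The band holds 105 genes in KO/LacZ and 55 in KO/eIF4B, and the medians are 0.5 and 0.57.

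The 18 h change of the 40 genes was larger in KO/LacZ than in KO/eIF4B for 35 genes and smaller for 5. Over all genes with a mean of at least 6 it was larger in KO/LacZ for 51.2%, and among the 395 late risers for 74.2%. The median difference, KO/LacZ minus KO/eIF4B, was 0.12 over the 40 and 0.13 over the 395. A difference of at least 0.5 toward KO/LacZ was seen in 4 genes, OGFRL1 (1.41), PTN (0.68), IRF9 (0.64) and ATP10D (0.62), and toward KO/eIF4B in 0. Of the 10516 genes with a mean of at least 6, 203 (1.93%) passed 0.5 toward KO/LacZ and 105 toward KO/eIF4B. Among the 395 late risers, which include the 40, 60 passed 0.5 toward KO/LacZ and 13 toward KO/eIF4B. For PTN the size rests on 1 probe set, since its other 2 with a mean of at least 6 had 18 h changes of 1.3 and 1.86 in KO/LacZ against 1.27 and 1.44 in KO/eIF4B. At the other end were ICA1 (-0.2), DZIP3 (-0.11), ABCB9 (-0.03), ARHGAP35 (-0.02) and ECHDC2 (-0.01). The rule bounds both changes from below, and 1 array per line and time leaves no error for this difference, so it is a description.

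**Figure D4:**
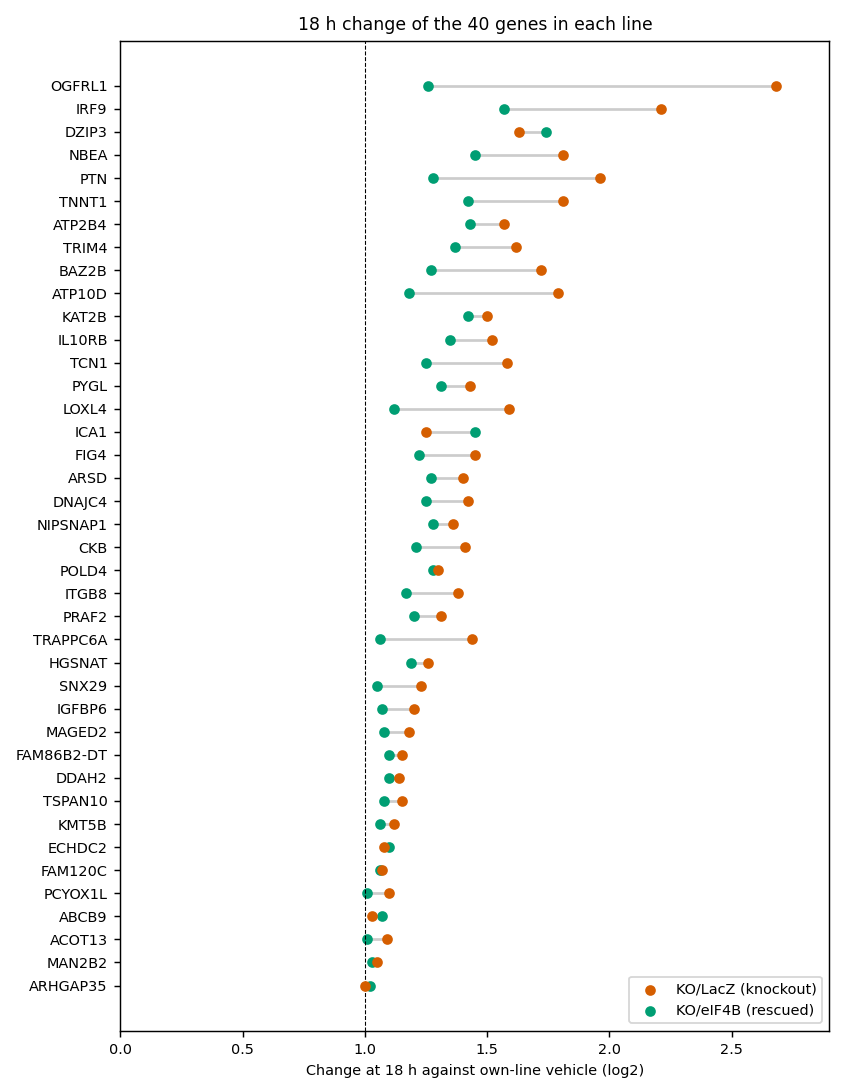
Change at 18 h against own-line vehicle (log2, horizontal axis) for each of the 40 genes in KO/LacZ and KO/eIF4B, each point from 1 array at 18 h and 1 vehicle array; the dashed line is the limit of 1. The KO/LacZ point lies to the right in 35 rows, with the widest gap, 1.41, at OGFRL1.

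The mean level in KO/LacZ against KO/eIF4B asks whether eIF4B status went with the level of these mRNAs whatever the treatment. The rule set no direct limit on this contrast. However, the changes within each line that the rule bounds enter both the mean difference and its error. The number of the 40 genes called is therefore not independent of how they were chosen. Of the 40 genes 4 differed, FAM120C, CKB and IGFBP6 higher and KAT2B lower in KO/LacZ (limma additive model of line and treatment, Benjamini-Hochberg over 13506 genes, threshold 0.05). Over all genes tested 2.5% were called, 1.44% higher and 1.06% lower. These include genes dimmer than the rule allows. When only the 10516 genes with a mean of at least 6 were fitted, 513 of them and 5 of the 40 were called (limma, Benjamini-Hochberg). FAM120C was higher by 0.58 (SE 0.05, limma adjusted p = 0.028), with 0.62, 0.51 and 0.62 under vehicle, at 6 h and at 18 h. CKB was higher by 0.51 (SE 0.06, limma adjusted p = 0.037), with 0.46, 0.43 and 0.66. IGFBP6 was higher by 0.39 (SE 0.05, limma adjusted p = 0.041), with 0.32, 0.39 and 0.45. KAT2B was lower, at -0.48 (SE 0.06, limma adjusted p = 0.038), with -0.45, -0.59 and -0.38. These are differences of 1.31 to 1.5-fold, and the sign was the same in all 3 pairs for each.

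The calls rest on all 3 pairs of arrays, since with any one pair left out 0 of the 40 genes were called, and over all genes 50 were called without the vehicle pair and 0 without the 6 h or the 18 h pair (limma, Benjamini-Hochberg). At an unadjusted p under 0.05, 15 of the 40 genes and 3101 of all 13506 passed with all pairs, and 10, 14 and 18 passed without the vehicle, 6 h or 18 h pair, against 1876, 2494 and 2727 of all genes. The second FAM120C probe set had KO/LacZ minus KO/eIF4B differences of -0.02, 0.01 and -0.03, and CKB, IGFBP6 and KAT2B have no second one. TCN1 was lower in KO/LacZ in all 3 pairs, by a mean of -0.44, and missed the threshold (SE 0.08, limma adjusted p = 0.060). Of the other 36 genes OGFRL1 had the widest error, with a mean difference of -0.01 (SE 0.33). In 22 of the 40 genes the 3 pairs had the same sign, 14 higher and 8 lower in KO/LacZ. The median size of the line difference was 0.12, against 0.09 for all genes with a mean of at least 6. The model's residual SD had a median of 0.075 for the 40 genes, 0.134 for the 395 late risers and 0.063 for all genes of that level, and since the rule asks both lines to stay near vehicle at 6 h, it limits this error for the 40.

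**Figure D5:**
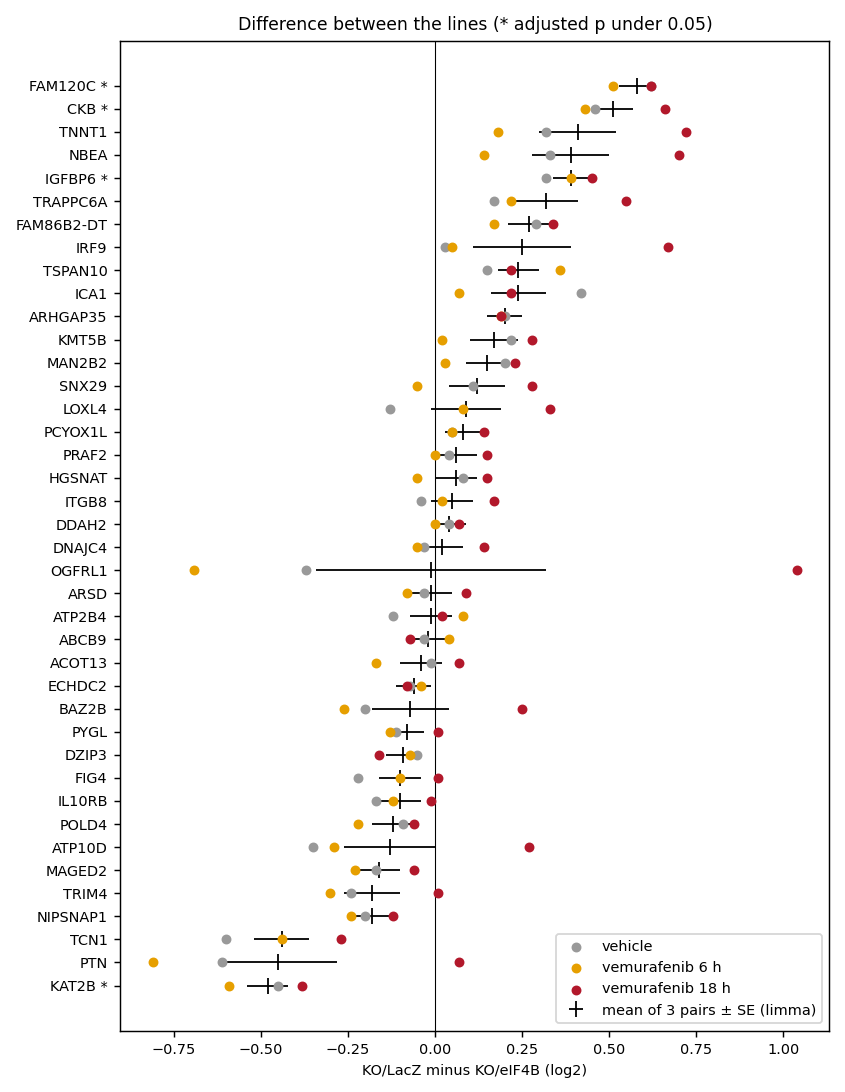
KO/LacZ minus KO/eIF4B difference in signal (log2, horizontal axis) for each of the 40 genes under vehicle, at 6 h and at 18 h, with the mean of the 3 pairs and its SE from limma; asterisks mark an adjusted p under 0.05. FAM120C (0.58), CKB (0.51) and IGFBP6 (0.39) lie to the right of 0 and KAT2B (-0.48) to the left in all 3 pairs, and the OGFRL1 points run from -0.69 to 1.04.

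RefSeq's table matched 35 of the 40 genes by symbol, and not HGSNAT, ARHGAP35, TRIM4, ARSD and FAM86B2-DT. Each motif was searched on both strands and counted on its own, whether or not it overlapped another, and no share was tested. Their median G and C content was 66.7% and their CpG observed over expected ratio 0.74, against 65.7% and 0.85 for 8686 promoters of genes with a mean of at least 6. A GC box, GGGCGG on either strand, was in 30 of 35 (85.7%), against 71.4% of the 8686 and 44.6% of all 27305 promoters in the table. The TEAD motif, GGAATG on either strand, was in 8 (22.9%), against 10.5% and 14%. Those 8 were IRF9, ATP2B4, IL10RB, CKB, IGFBP6, DDAH2, TSPAN10 and FAM120C. A CCAAT box was in 13 (37.1%), against 37.6% and 35.7%, and TATAAA in 3 (8.6%), against 5.2% and 12%.

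The other motifs searched were each in 2 or fewer of the 35 promoters, too few to set apart from the shares beside them. The E-box CACGTG was in 2 promoters (5.7%), IRF9 and PRAF2, against 10.6% and 7.4%. The M-box TCATGTG, bound by MITF, was in 1 (2.9%), that of TSPAN10, against 1.6% and 3.0%. The FOXO motif TGTTTAC was in 1 (2.9%), IGFBP6, against 2.2% and 3.4%. The AP-1 motif TGANTCA, with N any base, was in 2 (5.7%), PTN and TSPAN10, against 4.3% and 7.8%. The interferon response element, searched as GAAA, any 2 bases and GAAA again, was in 0 of 35, against 2.6% and 3.6%. The CRE, TGACGTCA, was in 0 too, against 3.4% and 2.0%. A match describes letters in this window and is no evidence of binding, and the absence of one says nothing of the factor.

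The mirror group, genes down by at least 1 at 18 h in both lines and within 0.3 of vehicle at 6 h, held 22 genes under the same limits and names left out. Its median change at 18 h was -1.21, against 1.32 for the 40 rising genes. Both groups were cut at a change of 1 at 18 h, which bounds both medians. The 48 early risers had a median 18 h change of 2.58, and at 6 h they had reached a median of 66.6% of it. Their 6 h minimum of 1 keeps this share up. The TEAD motif was in 3 of their 39 promoters and in 0 of 17 in the mirror group. For the other motifs, again early risers first, the GC box was in 71.8% and 64.7% and the CCAAT box in 48.7% and 35.3%. The E-box was in 10.3% and 23.5% and TATAAA in 10.3% and 11.8%. Every remaining motif was in 2 or fewer promoters of each group. These values set the 40 genes beside others and were not tested.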

How the data were processed

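Total RNA from each line and treatment was measured on 1 Affymetrix gene expression array, 6 in all. The authors deposited RMA intensities, and these run from 3.01 to 19000, which shows them to be linear. Per the submitters' processing notes the tools were RMA and affy, with no version. RMA subtracts background, equalises the arrays' distributions and combines probes, so a shift common to all genes would not be seen. The test had been planned for log2 values, and log2 of the deposited intensities was taken.

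Of 54675 probe sets, 41091 name 1 gene in the platform annotation, 1801 name several and 11721 none, and 62 are controls. Each gene took its probe set with the highest mean. The 40 genes, the 21 lists and the roles were chosen with earlier results of these data known. All 40 genes are accounted for and were tested, and all 40 passed the filter of a mean of at least 5.

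limma 3.58.1 in R 4.3.3 fitted an additive model of line and treatment to the 6 arrays, over 13506 genes whose mean reached 5, with Benjamini-Hochberg adjustment, 2 residual and 3.19 prior degrees of freedom. It was tested on simulated data. Each cell of the design holds 1 array, so the line effect has 3 pairs, treatment effects have 2, and the number of arrays limits precision. Named with values on each array were the 12 genes with the largest mean 18 h change, those called between the lines and the 4 at each end of the difference between the lines at 18 h; the 3 genes nearest each limit, inside and outside, were named too, other members by role, and other list genes entered by counts. Levels on each array of HGSNAT, FIG4, PYGL, NIPSNAP1, ITGB8, TCN1 and LOXL4 and the promoters printed were added after the values were seen. Promoters are from RefSeq (GRCh38.p14). Alternatives changed the limits of the rule, the probe set choice, an offset of 16, the filter, the moderation and the arrays used.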

Additional observations from a re-analysis of the deposited data

Results flagged for a closer look

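In 4 of the 40 genes the 6 h changes went opposite ways in the lines. OGFRL1 changed by -0.1 in KO/LacZ and 0.22 in KO/eIF4B, NBEA by -0.08 and 0.11, LOXL4 by 0.09 and -0.13, and ICA1 by -0.08 and 0.27. Each value comes from 1 drug array and 1 vehicle array, all are inside the window of 0.3 that chose the genes, and the difference between the lines was not tested. For OGFRL1 the opposite directions rest on the representative probe set alone. Its other probe sets with a mean of at least 6 changed at 6 h by -0.14 and -0.36 in KO/LacZ and by -0.29 and -0.3 in KO/eIF4B.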

How the results depend on the processing

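The number of genes that met the rule, 40, was 13 with a 6 h window of 0.2 and 135 with 0.5, and 110 with an 18 h minimum of 0.8 and 2 with 1.5. It was 53 and 29 with a minimum mean of 5 and 7, 30 with the mean of all probe sets of a gene (23 shared with the 40), 37 with 16 added before log2 (28 shared), and 40 (24 shared) with arrays centred on their median, which was chosen after seeing the data. The median 18 h change of the 40 genes, 1.32, was 1.11 with the mean of all probe sets, 1.2 with 16 added and 1.19 with centred arrays, and the median difference between the lines, 0.12, was 0.11, 0.11 and 0.14.

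For KO/LacZ against KO/eIF4B limma called 337 of all genes. The count was 58 with no filter on dim genes, 513 with a mean of at least 6, 1169 with a variance trend, 541 with 16 added, 299 with robust moderation and 365 with the mean of all probe sets, and it ranged from 0 to 50 with a pair of arrays left out. Of the 40 genes 4 were called, against 1 with no filter, 5 with a mean of at least 6, 6 with a variance trend, 4 with robust moderation, 5 of 37 with the mean of all probe sets, 5 with 16 added, and from 0 to 0 with a pair left out. Apart from fewer arrays or more genes tested, the cause of these moves was not tested. The additive model compares the lines within each treatment. Beyond that, no analysis paired by replicate number could be made, because the labels carry no replicate numbers and each combination of line and treatment has 1 array. The dimmest of the 40, ICA1 with a mean of 6.14, is the nearest to background.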

Other observations

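The 2 genes left out by name also met the limits. PCDH7, a protocadherin, was 3.63 above vehicle at 18 h in KO/LacZ and 2.05 in KO/eIF4B, and ACTA2, the smooth muscle actin, 1.76 and 1.69. Among lists that hold none of the 40 genes, 21 of 31 FOXO and growth arrest genes rose and 3 fell at 18 h, and 11 had risen at 6 h (limma, Benjamini-Hochberg threshold 0.05). Of 19 genes of G1/S and replication, 19 fell at 18 h and 5 at 6 h by the same test, with medians of -0.06 at 6 h and -0.99 at 18 h. Of all 13506 genes tested, 28.1% rose and 23.3% fell at 18 h, and 7.34% rose and 8.82% fell at 6 h.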
